A study of Mus musculus with 24 samples.

Results

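The cells described here were 3134 mouse mammary adenocarcinoma cells carrying an IPTG-inducible short hairpin against NIPBL, with an empty vector (EV) integrated by piggyBac transposition and with no hormone given. The comparison set 2 libraries from cells grown with 1 mM IPTG, which switches the hairpin on, against 2 libraries from the same cells without IPTG. These were 4 of the 24 libraries of the series. All 4 came from cells kept for 3 days in charcoal-stripped serum, which is depleted of steroid hormones, and given ethanol, the vehicle, for 2 h before harvest. The other 20 libraries (the Dex-treated EV cells and the cells given NIPBL constructs) entered only to share the estimate of the spread between replicates. The labels give 1 EV line, the series text calls the replicates biological without saying how the cultures were separated, and none of the compared libraries received IPTG without the hairpin, so that loss of NIPBL and any other effect of IPTG or of the hairpin cannot be told apart.

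NIPBL, together with its partner MAU2, places the ring-shaped cohesin complex on chromatin and stimulates it to reel in DNA and form loops. Cohesin loops bring distant enhancers and promoters near each other, and the same ring holds sister chromatids together after replication. Loss of 1 functional copy of NIPBL is the best known cause of Cornelia de Lange syndrome, a developmental disorder in which many genes each change by a small amount.

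Total RNA depleted of ribosomal RNA was sequenced, and the reads assigned to genes numbered 42711188 and 34557928 without IPTG and 38263001 and 32532858 with it. Of these, 12.02% to 13.3% fell on the pair of most abundant genes, Gm26917 and Gm42418. Levels are given as CPM, counts scaled to a common library size after TMM normalization, always in the order replicate 1, replicate 2. Changes are log2 differences, IPTG minus no IPTG, with the standard error (SE) of the fit after the ± sign, and a gene was called when its edgeR quasi-likelihood p, Benjamini-Hochberg adjusted over all 16934 genes tested, was under 0.05. The labelled mammary origin was checked against marker genes. Vim, an intermediate filament of mesenchymal cells, stood at 3596 and 3843 against 3849 and 3795 CPM, and Krt8, a luminal keratin, at 0.560 and 0.525 against 0.684 and 0.480 CPM. Epcam and the milk protein genes Csn2 and Wap had 0 counts in all 4 libraries, Cdh1 (E-cadherin) had at most 3 counts in any library, and 9 of the 20 mammary markers had no count in any of them. Of the 20 markers 6 were tested, 2 called higher and 1 lower, and the 20 summed to 51.9 and 54.4 CPM without IPTG and 57.4 and 59.4 CPM with it. Csn3, a milk protein gene outside the marker list, was at 1.19 and 1.11 against 2.61 and 2.999 CPM (log2 change 1.28 ± 0.22, adjusted p = 2.0e-04). Of the 12 fibroblast markers, which include Vim, 5 were tested, 3 called higher and 1 lower. Dcn, Lum, Fap and Postn had 0 counts in all 4 libraries. The 12 summed to 5241 and 5500 CPM without IPTG and 5708 and 5826 CPM with it. Thus Epcam, Cdh1, Csn2 and Wap were absent or nearly so in both groups, but members of both lists went both ways. The cells are named below only by their line.

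Nipbl RNA stood at 186 and 177 CPM without IPTG and 65.1 and 62.6 CPM with it. Both IPTG libraries lay far below both others (log2 change -1.51 ± 0.10, adjusted p = 1.4e-08). The other parts of the cohesin system were mostly not called: of 19 tested members of the list, 1 rose, 3 fell (Nipbl among them) and 15 were not called, beside 7.16% of all tested genes called higher and 6.24% called lower, or 9.29% and 8.09% of the 12163 tested that code for protein, as most list members do. Mau2 was at 62.4 and 60.4 against 57.4 and 59.98 CPM (log2 change -0.07 ± 0.06, adjusted p = 0.53). The ring subunits Smc1a (-0.10), Smc3 (-0.14) and Rad21 (-0.08) were not called, nor were Stag2 (0.09), the release factor Wapl (-0.05) and the loop-anchoring factor Ctcf (0.13), where the values are log2 changes. Stag1, which encodes the alternative of STAG2 in the ring, was at 153 and 144 CPM without IPTG and 221 and 222 CPM with it (log2 change 0.58 ± 0.05, adjusted p = 2.4e-08). Pds5b, a regulator that binds the ring, was at 199 and 198 against 158 and 160.2 CPM (log2 change -0.32 ± 0.04, adjusted p = 1.2e-05). Esco2, which acetylates the ring in S phase, was at 60.3 and 60.3 against 48.5 and 48.02 CPM (log2 change -0.32 ± 0.05, adjusted p = 1.9e-04). In each of these called genes the groups were well apart and the replicates of a group close together, and each call held when any 1 of the 4 libraries was left out.

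**Figure D1:**
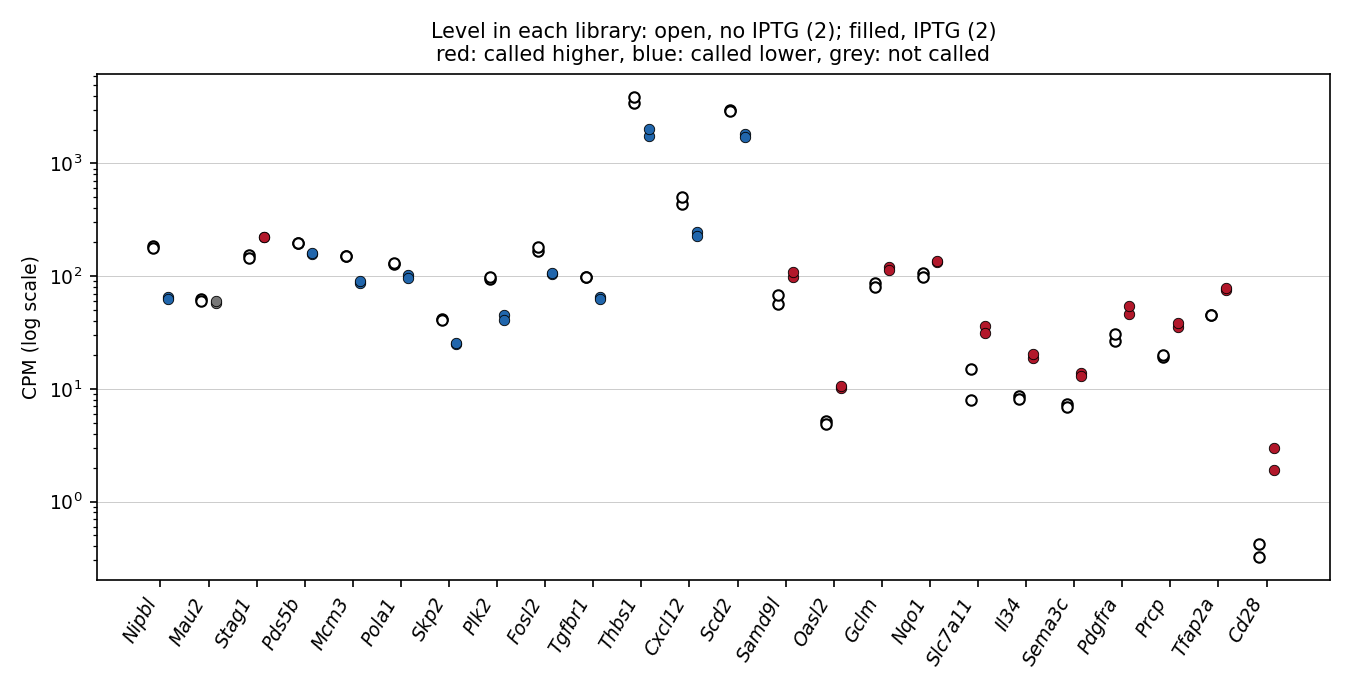
Level of 24 genes in each of the 4 libraries, as CPM on a log axis; open circles are the 2 libraries without IPTG and filled circles the 2 with it, coloured by the call. Nipbl falls from 186 and 177 CPM to 65.1 and 62.6 CPM, Mau2 stays between 57.4 and 62.4 CPM, and Stag1 rises.

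Across all genes, 2270 of 16934 were called, which is 13.4%: 1213 higher (7.16%) and 1057 lower (6.24%). Of the 12163 protein-coding genes tested, 9.29% were higher and 8.09% lower, the shares to set beside the list counts below. Most changes were small. The median fold among called genes was 1.28 for those higher and 1.25 for those lower, and 162 genes (0.957%) were at least 2-fold higher and 96 (0.567%) at least 2-fold lower. The groups did not overlap in any of the 2270, but they did not overlap in 55.2% of all tested genes either, so that this alone marks little. With 2 libraries a group, single libraries weighed heavily: 1459 genes were called without IPTG replicate 1, 1107 without IPTG replicate 2, 1168 without the replicate 1 that had no IPTG, and 1527 without replicate 2 of that group. In all 4 of those fits 738 genes (4.36%) were called, 346 of them higher and 392 lower, and the genes named below are mostly of this kind. No called gene turned its direction in any fit that tested it; the strict filter left 136 of them out. The median change of all genes was -0.01 on the log2 scale. Whether the counting used the strand of the reads is not given in the sources used here, so that reads of overlapping genes may be mixed: of the genes named in the report, besides those whose overlap is given where they are described, Ampd3, Bax, Ftl1, Gclm, Ncl, Pdgfra and Scd2 overlap another annotated gene on the same strand and Adgrl3, Ampd3, Bdnf, Ccne2, Cdkn1a, Col5a1, Ctcf, Fn1, Ftl1, Furin, G6pdx, Gclm, Hoxa7, Il34, Krt8, Man2a2, Nhp2, Nid1, Notch1, Notch3, Nrg1, Pdgfra, Plxna1, Serpinb9b, Sox5, Spry1, Stag2, Tfap2a, Tgfb2, Thbs1 and Wdr43 one on the other strand.

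**Figure D2:**
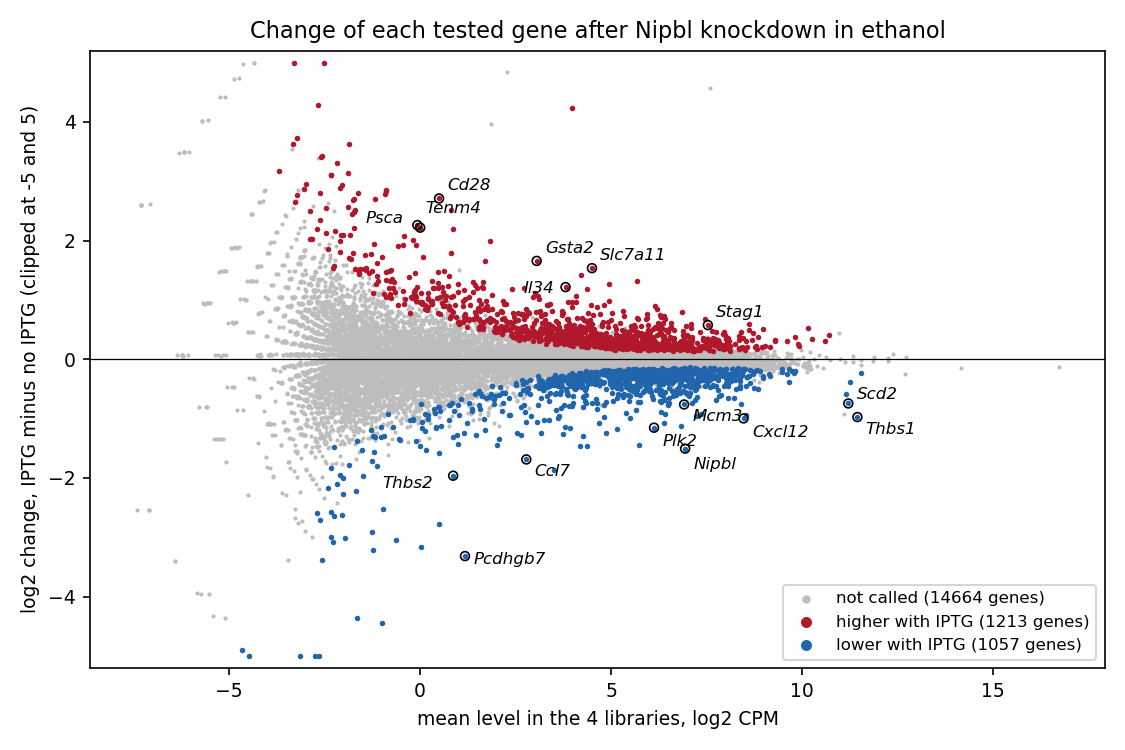
Log2 change of each tested gene (IPTG minus no IPTG, clipped at -5 and 5) against its mean level in the 4 libraries (log2 CPM); red genes were called higher (1213), blue lower (1057), grey not called. Changes over 2-fold lie mostly among genes of low level, and circles mark named examples.

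Many genes that start and carry out DNA replication fell, most of them by little; in bulk libraries, fewer cells in S phase and less RNA per cell cannot be told apart. Of 42 tested members, 28 fell and none rose (background 6.24% lower), and the median was -0.26 against -0.01 for all genes. The call count was 21 without IPTG replicate 1, 18 without IPTG replicate 2 and 22 without either of the libraries that had no IPTG. Most of these genes are known targets of the E2F factors, and the promoters of 5 members that fell and hold the E2F motif are shown. The motif searched was TTTGGCGC, TTTCCCGC, TTTGCCGC or TTTCGCGC on either strand, in RefSeq windows (GRCm38.p6) from 250 bases before to 50 after a start. Each stretch is 120 bases on the gene's strand, 5′ to 3′, with the match in capitals.
Mcm3 (chr1:20820263-20820382, minus strand): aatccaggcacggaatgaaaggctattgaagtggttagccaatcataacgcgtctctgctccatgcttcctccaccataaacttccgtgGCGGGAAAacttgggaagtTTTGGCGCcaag
Mcm6 (chr1:128359721-128359840, minus strand): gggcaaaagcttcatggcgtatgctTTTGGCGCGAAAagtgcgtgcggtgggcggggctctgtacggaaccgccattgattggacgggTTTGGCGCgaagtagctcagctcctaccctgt
Pola1 (chrX:93632231-93632350, minus strand): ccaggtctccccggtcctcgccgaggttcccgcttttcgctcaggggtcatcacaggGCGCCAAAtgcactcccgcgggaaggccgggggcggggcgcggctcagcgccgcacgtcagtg
Cdc6 (chr11:98907956-98908075, plus strand): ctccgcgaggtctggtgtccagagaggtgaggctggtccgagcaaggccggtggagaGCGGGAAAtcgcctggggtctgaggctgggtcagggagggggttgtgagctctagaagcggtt
Cdt1 (chr8:122567945-122568064, plus strand): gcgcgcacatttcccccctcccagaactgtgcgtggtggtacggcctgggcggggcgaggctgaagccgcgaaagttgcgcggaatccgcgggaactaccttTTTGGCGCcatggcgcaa
Relative to the listed start, the matches span positions -110 to -40 in Mcm6 and -138 to -131 in Pola1 and Cdc6. In Mcm3 (19 to 45) and Cdt1 (32 to 39) they lie after it. Mcm3 and Mcm6 hold more than 1 match, and in Mcm6 matches run into each other.

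Mcm3, a subunit of the replicative helicase, was at 151 and 152 CPM without IPTG and 87.7 and 90.7 CPM with it (log2 change -0.76 ± 0.07, adjusted p = 5.8e-08). Its groups were far apart and its replicates nearly level. Mcm6, of the same helicase, was at 304 and 298 against 247 and 238 CPM (log2 change -0.31 ± 0.05, adjusted p = 2.7e-04). Pola1, the catalytic subunit of the polymerase that lays primers, was at 128 and 129.8 against 102 and 96.9 CPM (log2 change -0.37 ± 0.05, adjusted p = 7.4e-06). The loading factors moved alike but with wider spread: Cdc6 was at 58.2 and 61.1 against 37.2 and 43.01 CPM (log2 change -0.57 ± 0.13, adjusted p = 0.0071), and its call was lost in 2 of the 4 fits that left out a library. Cdt1 was at 86.1 and 82.8 against 68.00 and 65.4 CPM (log2 change -0.34 ± 0.08, adjusted p = 0.004) and was called in 3 of those fits. Among regulators, E2f1, itself an E2F factor, was at 92.7 and 90.2 against 75.4 and 75.7 CPM (log2 change -0.28 ± 0.06, adjusted p = 0.0026). Uhrf1, which carries DNA methylation through replication, was at 318 and 321 against 257 and 259 CPM (log2 change -0.31 ± 0.06, adjusted p = 8.8e-04). Ccne2, cyclin E2, was at 57.7 and 63.2 against 30.1 and 30.6 CPM (log2 change -0.99 ± 0.09, adjusted p = 6.5e-08), the largest fall of the list. It overlaps Ints8 on the other strand, which was at 97.8 and 101 against 96.4 and 101 CPM and not called. Ccne1, the other E cyclin, was not called (25.8 and 25.7 against 27.5 and 33.1 CPM, log2 change 0.23 ± 0.13, adjusted p = 0.28), and it was the 1 member with a change above 0. Pcna, the sliding clamp, was not called either (228 and 224 against 205 and 199 CPM, log2 change -0.16 ± 0.06, adjusted p = 0.066).

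**Figure D3:**
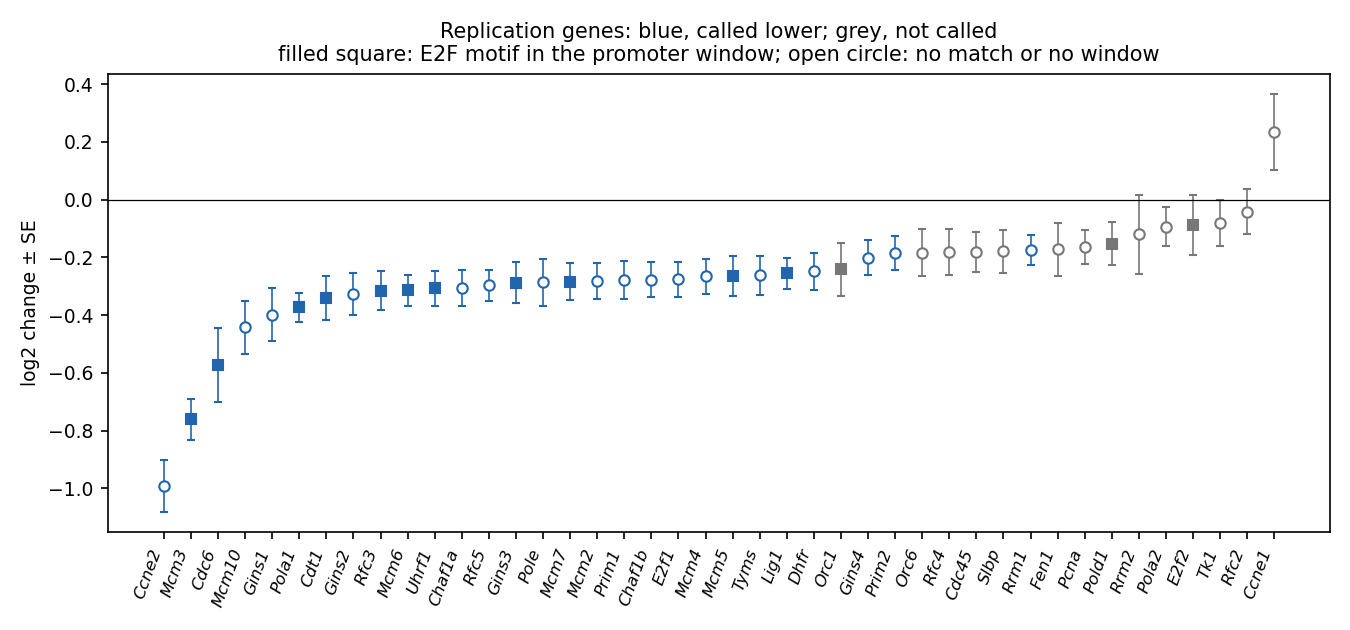
Log2 change with its SE for the 42 replication genes, ordered by size; blue genes were called lower and grey were not called, and filled squares hold an E2F motif in a promoter window. All but Ccne1 lie below 0, down to -0.99 in Ccne2.

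Over all genes, the E2F motif was found in 2.61% of the promoter windows of 27025 genes and in 4.69% of the 10231 tested genes with a window. Of the called genes with a window, 9.28% of those lower and 2.65% of those higher held it. Read the other way, 15% of the 480 tested genes with the motif were lower and 5% higher, against 7.22% lower and 9.05% higher without it. In the replication list 14 of 33 members with a window held the motif, 11 of them among the 20 that fell. A match of letters is a description of these windows and not evidence of binding.

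Outside the list, Skp2, which marks the cell cycle inhibitor p27 for destruction, was at 41.5 and 40.9 CPM without IPTG and 24.8 and 25.8 CPM with it (log2 change -0.71 ± 0.07, adjusted p = 1.4e-07). Cdkn1b, which encodes p27, was at 198 and 199 against 248 and 247 CPM (log2 change 0.32 ± 0.07, adjusted p = 0.0031); it was chosen for mention after its values were seen. The pair thus moved in opposite directions, and both calls held in all 4 fits that left out a library. Of 36 mitosis genes, 10 were called lower and none higher (median -0.10), only Mybl2 was called in every fit that left out a library (72.1 and 67.7 against 55.5 and 53.96 CPM, log2 change -0.35 ± 0.07, adjusted p = 0.0011), and the count was 4 when a trend with GC content and length was taken out and 2, 2, 5 and 2 without IPTG 1, IPTG 2, no IPTG 1 and no IPTG 2. Cdk1 was at 129 and 132 against 119.97 and 119 CPM and Ccnb1 at 96.2 and 99.03 against 90.7 and 92.5 CPM, neither called. Replication-dependent histone genes counted 14 lower and none higher of 61 (median -0.19), and 2, 4, 8 and 4 in the same order of libraries left out. These genes are near copies of each other, so that their reads are hard to divide among them. Hist1h2bk was the 1 that held throughout (93.6 and 93.2 against 77.7 and 71.8 CPM, log2 change -0.32 ± 0.06, adjusted p = 2.8e-04).

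Of the 38 ribosome biogenesis genes, which make and process ribosomal RNA in the nucleolus, 17 were lower and none higher, with a median of -0.20. Without IPTG 1, IPTG 2, no IPTG 1 and no IPTG 2 the count was 14, 5, 7 and 11. Nhp2, a protein of the particles that convert uridine to pseudouridine, was at 59.4 and 57.2 against 44.4 and 41.1 CPM (log2 change -0.45 ± 0.08, adjusted p = 6.7e-04). Nolc1, a nucleolar phosphoprotein, was at 137 and 134 against 110.5 and 105 CPM (log2 change -0.33 ± 0.07, adjusted p = 0.0015). Wdr43 was at 132 and 126 against 107 and 98.7 CPM (log2 change -0.33 ± 0.06, adjusted p = 6.9e-04). In these 3 the 2 groups were well separated, whereas Ncl, nucleolin, had its IPTG libraries spread over 665 to 757 CPM (844 and 848 against 757 and 665 CPM, log2 change -0.25 ± 0.07, adjusted p = 0.011). Myc, a driver of this programme, was at 75.03 and 84.1 against 61.6 and 61.99 CPM (log2 change -0.36 ± 0.10, adjusted p = 0.019), a call that held in 1 of the 4 fits leaving out a library. The ribosomal protein genes themselves gave 3 of 37 lower and a median of -0.08. That was 8.11% lower, beside 44.7% of the biogenesis list and 8.09% of all protein-coding genes.

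Targets of p53 split, with 32.1% lower and 7.14% higher, beside 8.09% and 9.29% of protein-coding genes. Of 28 tested, 9 fell and 2 rose (median -0.10), and 6, 6, 5 and 7 fell without IPTG 1, IPTG 2, no IPTG 1 and no IPTG 2. Plk2, a stress-responsive kinase, was at 95.04 and 97.4 CPM without IPTG and 45.5 and 40.9 CPM with it (log2 change -1.15 ± 0.07, adjusted p = 9.3e-11). Cdkn1a, the cyclin-dependent kinase inhibitor p21, was at 124 and 112 against 80.1 and 74.1 CPM (log2 change -0.61 ± 0.07, adjusted p = 9.4e-07). Eda2r, a receptor of the TNF family, was at 37.2 and 32.9 against 17.8 and 15.4 CPM (log2 change -1.08 ± 0.16, adjusted p = 3.6e-04). Each of these fell clear of its controls. The stress cytokine Gdf15 was at 6.30 and 5.60 against 2.28 and 2.07 CPM (log2 change -1.45 ± 0.20, adjusted p = 1.6e-05). On the other side Perp, a desmosome-associated membrane protein, was at 48.2 and 52.3 against 67.5 and 63.2 CPM (log2 change 0.38 ± 0.07, adjusted p = 0.001). Mdm2, Ccng1 and Bax, which p53 also induces, were not called, with log2 changes of -0.05, -0.08 and -0.06.

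Genes of the NRF2 programme, which makes and recycles glutathione and detoxifies reactive compounds, included a set that rose. Called higher were 31.0% and lower 13.8%, beside 9.29% and 8.09% of protein-coding genes. Of 29, 9 rose and 4 fell (median 0.12), and the count higher was 9, 9, 8 and 9 without IPTG 1, IPTG 2, no IPTG 1 and no IPTG 2. Slc7a11, the cystine importer, was at 14.9 and 8.03 CPM without IPTG and 36.3 and 31.3 CPM with it (log2 change 1.54 ± 0.20, adjusted p = 1.8e-04). Its control libraries differed from each other, yet both stayed below both IPTG libraries. Slc7a11 is also in the list of the ATF4 amino acid response, which gave 3 higher and 3 lower of 33 tested, 9.09% each. Gclc and Gclm, the subunits of the enzyme that begins glutathione synthesis, were at 111 and 98.9 against 143 and 133 CPM and 86.1 and 80.6 against 121 and 113 CPM (log2 change 0.40 ± 0.06, adjusted p = 3.8e-05 for Gclc, and log2 change 0.49 ± 0.07, adjusted p = 2.0e-05 for Gclm). Nqo1, a quinone reductase, was at 106 and 98.7 against 135 and 137 CPM (log2 change 0.41 ± 0.08, adjusted p = 7.9e-04). Srxn1, which restores peroxiredoxins, was at 159 and 160.1 against 208 and 199 CPM (log2 change 0.35 ± 0.06, adjusted p = 1.1e-04). These last 4 rose by little, with each group's replicates close together. Prdx1, a peroxiredoxin, was at 545 and 569 against 686 and 686 CPM (log2 change 0.30 ± 0.06, adjusted p = 6.5e-04), and G6pdx, which supplies NADPH, at 233 and 234 against 289.5 and 286 CPM (log2 change 0.30 ± 0.05, adjusted p = 7.9e-05). Gsta2, a glutathione transferase, was at 4.32 and 3.62 against 12.3 and 12.9 CPM (log2 change 1.66 ± 0.31, adjusted p = 0.0028). Gsta3, of the same family, had 22 counts with IPTG against 1 without, a ratio of 23.3 with a 95% counting interval of 3.76 to 961.

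Other members went the opposite way. Gsta4 was at 343 and 305 against 213 and 198 CPM (log2 change -0.66 ± 0.07, adjusted p = 2.5e-07). Ftl1, the ferritin light chain, was at 2707 and 2775 against 2180.3 and 2018 CPM (log2 change -0.38 ± 0.07, adjusted p = 9.4e-04). Txnrd1 and Hmox1 were not called (-0.03 ± 0.07 and 0.30 ± 0.18, log2 change ± SE), and Nfe2l2, which encodes NRF2, was at 129 and 129 against 129.6 and 135 CPM, also not called. The antioxidant response element TGACNNNGC was found in the windows of 10 of the 24 tested members with one, 5 of them among the 8 that rose, and in 16.6% of all tested genes, so that this short motif is common.

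Interferon-stimulated genes, the antiviral set switched on by interferon receptors through STAT2 and IRF9, gave the largest median of the 33 lists of pathways and families plotted, 0.55, with 22 of 38 higher and 1 lower. Single libraries decided much of this: the count of higher genes was 22 without IPTG replicate 1 but 8 without IPTG replicate 2, 6 without the replicate 1 that had no IPTG and 14 without replicate 2 of that group. The promoters of 4 members are shown because they carry the interferon-stimulated response element (ISRE), searched on either strand as its usual pair of GAAA blocks separated by any 2 bases, with the matches in capitals; neighbouring matches may run together.
Rsad2 (chr12:26456509-26456628, minus strand): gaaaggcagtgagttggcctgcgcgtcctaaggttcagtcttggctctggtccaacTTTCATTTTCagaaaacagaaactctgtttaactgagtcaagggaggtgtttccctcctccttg
Isg15 (chr4:156200827-156200946, minus strand): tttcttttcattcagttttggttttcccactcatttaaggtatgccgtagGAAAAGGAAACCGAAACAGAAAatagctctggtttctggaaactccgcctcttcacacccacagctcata
Ifit1 (chr19:34640739-34640858, plus strand): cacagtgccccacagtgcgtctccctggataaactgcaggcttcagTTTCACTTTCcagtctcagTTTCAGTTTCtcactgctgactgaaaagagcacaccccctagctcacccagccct
Gbp3 (chr3:142559946-142560065, plus strand): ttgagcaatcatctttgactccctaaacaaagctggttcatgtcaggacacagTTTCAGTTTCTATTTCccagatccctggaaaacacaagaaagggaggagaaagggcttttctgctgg
All of these matches lie upstream of the listed start, between positions -120 (Rsad2) and -30 (Gbp3). The element was found in 13 of 27 tested members with a window and in 8 of the 17 of them that rose. Among all tested genes 3.55% held it, and 11.8% of the 363 holders were called higher against 8.75% of the genes without it.

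Oasl2, an antiviral protein related to the 2-5A synthetases, was at 5.16 and 4.87 CPM without IPTG and 10.3 and 10.5 CPM with it (log2 change 1.05 ± 0.13, adjusted p = 5.6e-06). Samd9l, an antiviral and growth-restraining factor, was at 57.1 and 68.4 against 98.1 and 109 CPM (log2 change 0.73 ± 0.11, adjusted p = 2.1e-04). Stat2, of the signalling pathway itself, was at 25.9 and 26.9 against 31.5 and 34.8 CPM (log2 change 0.33 ± 0.06, adjusted p = 8.2e-04). In these 3 the groups were apart and the calls held in all 4 fits that left out a library. Rsad2, viperin, was at 5.67 and 4.70 against 8.71 and 9.48 CPM (log2 change 0.80 ± 0.18, adjusted p = 0.0031). Ifit1, which binds viral RNA, was at 21.01 and 21.98 against 28.3 and 29.3 CPM (log2 change 0.42 ± 0.10, adjusted p = 0.0051), and Isg15, a ubiquitin-like modifier, at 5.09 and 5.40 against 6.73 and 8.10 CPM (log2 change 0.50 ± 0.14, adjusted p = 0.015). Their calls were lost in 1, 2 and 3 of the 4 fits respectively. Gbp3, a GTPase, was at 0.724 and 0.963 against 1.49 and 2.37 CPM (log2 change 1.20 ± 0.30, adjusted p = 0.0087), with the IPTG libraries well apart from each other. The 1 member that fell was Trim25, a ubiquitin ligase (103 and 107 against 91.04 and 95.9 CPM, log2 change -0.16 ± 0.05, adjusted p = 0.04), and that call held in none of the 4 fits.

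MHC class I genes, which interferon also induces, gave 1 call among 18, or 5.56%, and it was lower. Of all protein-coding genes, 9.29% were called higher and 8.09% lower, so that so few calls mark little. The called gene was H2-T23, a nonclassical class I molecule that presents leader peptides to natural killer cells. It was at 40.04 and 41.7 CPM without IPTG and 17.3 and 17.4 CPM with it (log2 change -1.24 ± 0.10, adjusted p = 3.3e-08). Its IPTG libraries were level with each other and far below both controls. Outside the list H2-T24 was called lower too, at a low level (1.54 and 1.52 against 0.684 and 0.840 CPM, log2 change -1.01 ± 0.28, adjusted p = 0.015). H2-K1 and H2-D1, the classical molecules, were at 86.2 and 89.2 against 83.8 and 85.2 CPM and 269 and 282 against 290.2 and 299 CPM, and B2m, the shared light chain, at 293 and 297 against 323 and 301 CPM, none of them called. These genes are near copies, so that reads may be shared among them.

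**Figure D4:**
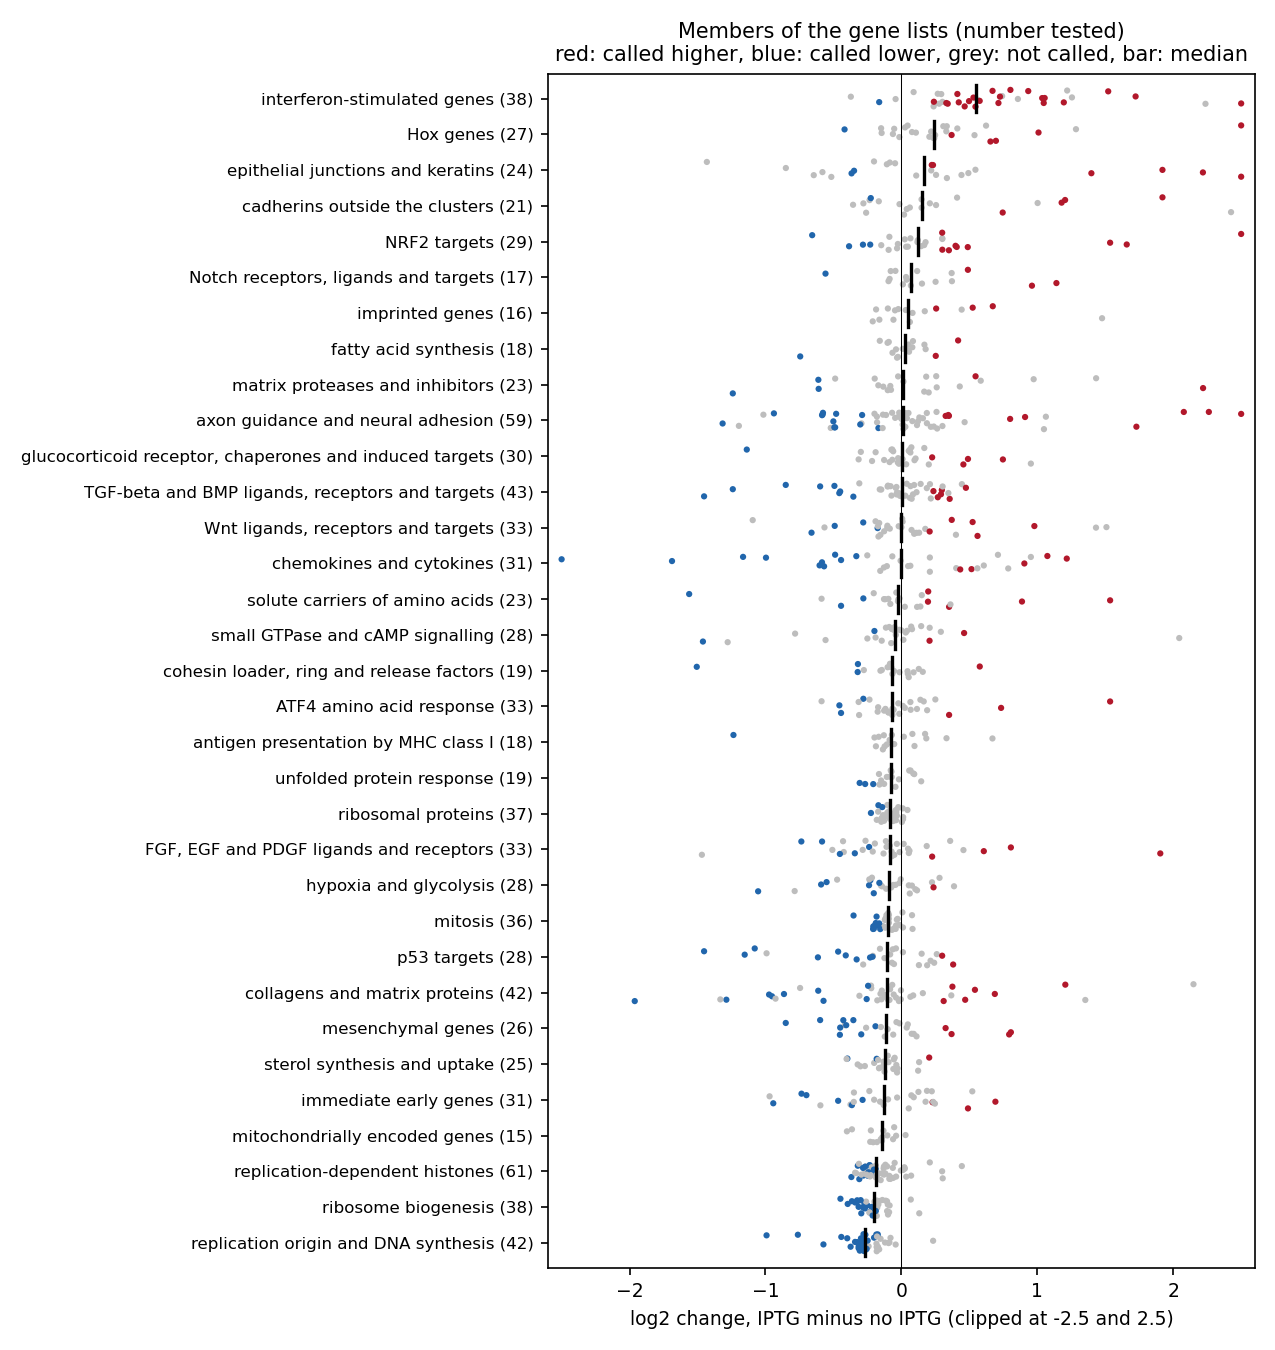
Log2 change of each tested member of 33 gene lists, with the number tested in brackets and a bar at the median; red members were called higher, blue lower, grey not called. Interferon-stimulated genes have the highest median (0.55) and replication genes the lowest (-0.26) of those drawn; clustered protocadherins (median -1.42) are left out because their range is wider.

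Chemokines and cytokines were pulled both ways, with 10 of 31 lower and 5 higher; the counts were 6, 7, 8 and 5 lower and 3, 2, 3 and 2 higher without IPTG 1, IPTG 2, no IPTG 1 and no IPTG 2. Cxcl12, which guides cells bearing CXCR4, was at 439.7 and 503 CPM without IPTG and 248 and 225 CPM with it (log2 change -0.996 ± 0.13, adjusted p = 1.2e-04). Ccl2, a monocyte attractant, was at 22.9 and 19.1 against 9.47 and 9.30 CPM (log2 change -1.16 ± 0.13, adjusted p = 1.2e-06), and its neighbour Ccl7 at 10.8 and 10.2 against 3.44 and 3.06 CPM (log2 change -1.69 ± 0.22, adjusted p = 9.8e-06). Cx3cl1, a membrane-tethered chemokine, was at 35.6 and 41.9 against 25.6 and 26.6 CPM (log2 change -0.57 ± 0.10, adjusted p = 8.3e-04). All of these were clearly lower with IPTG, in a list with 32.3% lower and 16.1% higher, beside 8.09% and 9.29% of protein-coding genes. Csf1 and Il34 encode the ligands of 1 receptor, CSF1R, and moved apart. Csf1 was at 358 and 406 against 267 and 295 CPM (log2 change -0.44 ± 0.11, adjusted p = 0.011), a call held in 2 of the 4 fits leaving out a library, while Il34 was at 8.68 and 8.11 CPM without IPTG and 18.8 and 20.4 CPM with it (log2 change 1.22 ± 0.10, adjusted p = 1.2e-08), a call held in all 4. The neutrophil attractant Cxcl5 was at 56.5 and 42.5 against 96.4 and 89.4 CPM (log2 change 0.90 ± 0.19, adjusted p = 0.0067) and Ccl5, an interferon-responsive chemokine, at 0.910 and 1.14 against 1.82 and 2.49 CPM (log2 change 1.07 ± 0.27, adjusted p = 0.0091), both higher.

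TGF-beta signalling genes changed in both directions, with receptors and ligands among those that fell. Of 43 members 8 were lower and 6 higher, or 18.6% and 13.95%, beside 8.09% and 9.29% of protein-coding genes. The median log2 change of the list was 0.004. The counts were 6, 7, 8 and 6 lower and 4, 5, 4 and 3 higher in that order of libraries left out. Tgfbr1, the type I receptor, was at 97.6 and 97.6 CPM without IPTG and 65.7 and 63.3 CPM with it (log2 change -0.60 ± 0.06, adjusted p = 1.2e-07). Tgfbr2, the type II receptor, was at 172 and 191 against 141 and 143 CPM (log2 change -0.35 ± 0.06, adjusted p = 4.8e-04). Among ligands, Inhba, the activin A subunit, was at 12.5 and 17.95 against 7.57 and 9.27 CPM (log2 change -0.85 ± 0.13, adjusted p = 7.9e-05), and Tgfb2 at 14.7 and 14.9 against 10.4 and 11.4 CPM (log2 change -0.45 ± 0.12, adjusted p = 0.012), held in 1 of the 4 fits. Tgfb1 was not called (log2 change 0.08 ± 0.06). Ltbp1, which stores latent TGF-beta in the matrix, was at 370.4 and 349 against 256 and 255 CPM (log2 change -0.49 ± 0.07, adjusted p = 1.9e-05), whereas Ltbp4, of the same family, was at 13.7 and 12.4 against 18.2 and 18.2 CPM (log2 change 0.47 ± 0.08, adjusted p = 3.6e-04). Id3, a target of the BMP branch, was at 119 and 126 against 154 and 146 CPM (log2 change 0.30 ± 0.06, adjusted p = 0.0011), higher. Smad7 and Smad3 were not called (log2 changes 0.22 ± 0.15 and 0.04 ± 0.14).

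The extracellular matrix list counted 9 lower and 6 higher of 42, or 21.4% and 14.3%, beside 8.09% and 9.29% of protein-coding genes. It counted 14 lower and 5 higher once the trend with GC content and length was taken out. The counts were 7, 6, 6 and 8 lower and 4, 3, 3 and 4 higher without IPTG 1, IPTG 2, no IPTG 1 and no IPTG 2. Thbs1, thrombospondin 1, an adhesive glycoprotein that activates TGF-beta, was at 3471 and 3923 CPM without IPTG and 1749 and 2017 CPM with it (log2 change -0.97 ± 0.18, adjusted p = 0.0026). It was among the more strongly counted genes, and no IPTG library came near a control. Thbs2 was at 3.08 and 2.71 against 0.684 and 0.810 CPM (log2 change -1.96 ± 0.23, adjusted p = 1.5e-06). Col6a1 and Col6a2, neighbouring genes for chains of collagen VI, were at 174 and 222 against 98.2 and 106 CPM and 23.9 and 30.97 against 10.6 and 11.8 CPM (log2 change -0.95 ± 0.14, adjusted p = 3.5e-04 and log2 change -1.29 ± 0.15, adjusted p = 1.4e-05). Col5a1, a chain of collagen V, was at 155 and 164 against 93.7 and 115 CPM (log2 change -0.61 ± 0.07, adjusted p = 8.1e-07). Fn1, fibronectin, was at 3057 and 2700.2 against 1556 and 1474 CPM and was not called (log2 change -0.93 ± 0.32, adjusted p = 0.084), although its groups did not overlap. Nid1, a basement membrane protein, was at 54.4 and 52.1 against 68.3 and 79.3 CPM (log2 change 0.47 ± 0.08, adjusted p = 2.6e-04), higher. Among receptors of mesenchymal cells, Pdgfra was at 26.6 and 30.9 CPM without IPTG and 46.2 and 54.2 CPM with it (log2 change 0.81 ± 0.08, adjusted p = 1.9e-07) and Pdgfrb at 231 and 236 against 164 and 177 CPM (log2 change -0.45 ± 0.10, adjusted p = 0.004), so that the 2 PDGF receptors moved in opposite directions.

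Axon guidance and neural adhesion genes, which also steer other cells, were changed in both directions: 12 of 59 lower and 9 higher. That was 20.3% and 15.3%, beside 8.09% and 9.29% of protein-coding genes. The counts lower were 9, 11, 10 and 9 and those higher 9, 5, 6 and 7 without IPTG 1, IPTG 2, no IPTG 1 and no IPTG 2. Of the plexin A receptors 3 were tested, and all 3 fell. Plxna1 was at 391 and 378 against 259 and 289.9 CPM (log2 change -0.49 ± 0.06, adjusted p = 7.1e-06), Plxna2 at 184 and 168 against 124 and 124 CPM (log2 change -0.50 ± 0.07, adjusted p = 7.2e-06) and Plxna3 at 21.3 and 17.7 against 13.4 and 14.4 CPM (log2 change -0.49 ± 0.08, adjusted p = 2.2e-04). Their coreceptor Nrp2 was at 1096 and 1049 against 1343 and 1391 CPM (log2 change 0.35 ± 0.06, adjusted p = 3.8e-04) and their ligand-family member Sema3c at 7.33 and 6.89 against 13.9 and 12.9 CPM (log2 change 0.91 ± 0.10, adjusted p = 5.4e-07), both higher. Ephb3, an ephrin receptor, was at 42.02 and 44.1 against 28.6 and 29.1 CPM (log2 change -0.58 ± 0.07, adjusted p = 4.1e-06), while Ephb2 was not called (log2 change 0.12 ± 0.06). Nrg1, the ERBB3 and ERBB4 ligand neuregulin, was at 117 and 122 against 76.2 and 83.3 CPM (log2 change -0.58 ± 0.06, adjusted p = 4.6e-07). The groups were also well apart for a pair of genes with few counts, Ntn4 (0.303 and 0.263 against 1.14 and 1.29 CPM, log2 change 2.08 ± 0.34, adjusted p = 1.5e-04) and Adgrl3, a latrophilin (0.257 and 0.204 against 0.886 and 0.660 CPM, log2 change 1.73 ± 0.34, adjusted p = 0.0011).

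Clustered protocadherins, surface identity molecules of neurons whose promoter choice uses CTCF and cohesin, were mostly scarce. Of the 34 that passed the filter on low counts 15 fell and none rose, but some passed only through libraries where they are high, so that the median, -1.42, describes those that passed and is no support for the group. It was -0.74 over the 8 left by the strict filter and -2.23 to -1.28 with 1 compared library left out. The count lower was 12, 11, 11 and 12 without IPTG 1, IPTG 2, no IPTG 1 and no IPTG 2, but 7 by DESeq2 and 5 after the strict filter, which tests fewer of these genes of low count. Pcdhga3 had 0 counts with IPTG against 18 without, at least 5.67-fold lower with a floor of 3 counts over the group. Pcdhga12 had 2 against 48, a ratio of 22.7 with a 95% counting interval of 5.95 to 193. Pcdhgc3, whose exons overlap the gamma genes, was at 181 and 172 against 162 and 162 CPM and not called. Cadherins outside the clusters gave 4 of 21 higher and 1 lower, beside 9.29% and 8.09% of protein-coding genes, and 3, 2, 2 and 4 higher in the same order of libraries left out. Cdh13, a cadherin anchored by a lipid, was at 9.99 and 9.72 against 15.97 and 17.1 CPM (log2 change 0.75 ± 0.08, adjusted p = 9.0e-07). Cdh2, N-cadherin, was at 158 and 159 against 162 and 152 CPM and not called. Reads in the gamma cluster are shared by design, since its genes join different first exons to common ones.

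Notch genes gave 3 higher and 1 lower of 17, beside 9.29% and 8.09% of protein-coding genes, and 2, 2, 3 and 2 higher in the same order. Notch3 was at 10.6 and 12.3 against 18.9 and 25.5 CPM (log2 change 0.96 ± 0.15, adjusted p = 2.4e-04) and Notch1 at 75.01 and 68.3 against 91.7 and 109.8 CPM (log2 change 0.49 ± 0.08, adjusted p = 2.1e-04), both receptors higher. Rbpj, the DNA-binding partner through which all Notch receptors act, was at 149 and 143 against 96.7 and 102 CPM (log2 change -0.56 ± 0.07, adjusted p = 7.4e-06), lower, with both IPTG libraries near each other. Immediate early and growth factor response genes gave 6 lower and 3 higher of 31; without IPTG 1, IPTG 2, no IPTG 1 and no IPTG 2, 5, 4, 5 and 4 were lower and 3, 0, 1 and 1 higher. That list had 19.4% lower and 9.68% higher, beside 8.09% and 9.29% of protein-coding genes. Fosl2, an AP-1 subunit, was at 166 and 183 CPM without IPTG and 104 and 106 CPM with it (log2 change -0.73 ± 0.06, adjusted p = 1.0e-08). Klf4, a zinc finger factor, was at 12.3 and 13.3 against 7.57 and 8.16 CPM (log2 change -0.70 ± 0.10, adjusted p = 4.7e-05), and Spry1, an inhibitor of receptor tyrosine kinase signalling, at 5.65 and 7.82 against 3.24 and 3.75 CPM (log2 change -0.94 ± 0.18, adjusted p = 7.1e-04). Fos itself was near the limit of detection at 0.374 and 0.379 against 0.203 and 0.300 CPM.

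In metabolism, the hypoxia and glycolysis list gave 7 lower and 1 higher of 28, with the lower count 4, 4, 5 and 4 without IPTG 1, IPTG 2, no IPTG 1 and no IPTG 2. Called lower were 25% of that list and 8% of the sterol list below, beside 8.09% of protein-coding genes. Hk2, hexokinase 2, was at 97.2 and 90.1 against 61.6 and 62.9 CPM (log2 change -0.59 ± 0.06, adjusted p = 5.5e-07). Egln3, an oxygen-sensing hydroxylase, was at 8.92 and 9.37 against 4.28 and 4.53 CPM (log2 change -1.05 ± 0.13, adjusted p = 2.2e-06). Fatty acid synthesis genes gave 2 higher and 1 lower of 18 tested, or 11.1% and 5.56%, beside 9.29% and 8.09% of protein-coding genes. The 1 called lower, Scd2, a desaturase of fatty acids, was at 2997 and 2929 CPM without IPTG and 1818 and 1719 CPM with it (log2 change -0.74 ± 0.12, adjusted p = 4.2e-04), but Fasn, which makes the substrate, was not called (1317 and 1085 against 1108 and 1145 CPM). Sterol synthesis genes lay slightly low as a set, with 22 of 25 changes below 0 and a median of -0.12, yet 2 were called lower and 1 higher; these calls were lost in each of the 4 fits that left out a library, while 7 were lower with the replicate block.

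Before any hormone, the glucocorticoid receptor, its chaperones and known hormone targets were mostly not called: of 30, 4 were higher and 1 lower, and 3, 2, 1 and 2 higher in the same order of libraries left out. Nr3c1, the receptor gene, was at 196 and 199.7 against 180.1 and 182 CPM (log2 change -0.13 ± 0.05, adjusted p = 0.079), and Fkbp5 at 80.2 and 87.7 against 69.4 and 75.1 CPM (log2 change -0.22 ± 0.08, adjusted p = 0.082), neither called. Tsc22d3 was at 11.5 and 14.1 against 12.4 and 11.7 CPM, also not called. In this list 13.3% were called higher and 3.33% lower, beside 9.29% and 8.09% of all protein-coding genes. Ampd3, AMP deaminase, was at 57.8 and 58.99 CPM without IPTG and 97.5 and 98.4 CPM with it (log2 change 0.75 ± 0.05, adjusted p = 1.8e-09). Angptl4, an inhibitor of lipoprotein lipase, was at 15.99 and 22.4 against 7.77 and 9.69 CPM (log2 change -1.14 ± 0.14, adjusted p = 8.6e-06). Per1, a clock gene, was at 22.2 and 22.6 against 26.6 and 25.8 CPM (log2 change 0.23 ± 0.05, adjusted p = 0.0046), held in 2 of the 4 fits leaving out a library.

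Some of the firmest changes lay outside every list. Those with the smallest p outside the lists were Prcp among the higher genes and Atp13a3 among the lower. Prcp, a lysosomal peptidase, was at 19.3 and 19.8 CPM without IPTG and 35.4 and 38.2 CPM with it (log2 change 0.91 ± 0.06, adjusted p = 8.9e-10). Atp13a3, a polyamine transporter, was at 425 and 429 CPM without IPTG and 254 and 254 CPM with it (log2 change -0.75 ± 0.05, adjusted p = 1.6e-10). In both, the replicates lay close together while the groups were far apart. Tfap2a, a transcription factor of ectoderm and neural crest, was at 44.8 and 45.6 against 74.8 and 78.9 CPM (log2 change 0.76 ± 0.06, adjusted p = 7.3e-09). Sox5, a factor of cartilage development, was at 77.1 and 78.4 against 30.1 and 26.9 CPM (log2 change -1.45 ± 0.18, adjusted p = 1.1e-04), and Osr1, of limb and kidney mesenchyme, at 16.5 and 21.5 against 8.05 and 7.77 CPM (log2 change -1.26 ± 0.17, adjusted p = 7.6e-05). Ccn4, a secreted matricellular protein, was at 108 and 118 against 54.1 and 53.7 CPM (log2 change -1.07 ± 0.07, adjusted p = 2.4e-10). Unlike these, Pparg, the regulator of fat cell genes, is in a list, that of 8 adipocyte markers. It was at 5.16 and 6.83 against 2.61 and 2.10 CPM (log2 change -1.34 ± 0.22, adjusted p = 1.2e-04). Of these markers 3 were tested, all with changes below 0, and 2 were called lower, beside 8.09% of protein-coding genes.

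The largest rises started from few counts. Cd28, the costimulatory receptor of T cells, was at 0.420 and 0.321 CPM without IPTG and 3.01 and 1.89 CPM with it (log2 change 2.71 ± 0.33, adjusted p = 2.8e-06), and Psca, a cell surface antigen of epithelia, at 0.327 and 0.379 against 1.44 and 1.86 CPM (log2 change 2.22 ± 0.28, adjusted p = 4.3e-06). The other T cell markers did not move with Cd28: Cd3e, Cd4, Cd8a and Ptprc had 0 counts in all 4 libraries, as had 8 of the 13 markers. The 12 macrophage markers summed to 26.8 and 29.5 CPM without IPTG and 28.6 and 31.0 CPM with it, with Adgre1 at 0. Hoxa7 had 25 counts with IPTG and 0 without, at least 8.82-fold higher with a floor of 3 counts over the group. Prl2c3, of the prolactin family, was at 1.66 and 1.49 against 21.6 and 38.4 CPM (log2 change 4.23 ± 0.94, adjusted p = 0.0097), but was called in 1 of the 4 fits leaving out a library; its near copy Prl2c2 was not called (0.397 and 0.467 against 4.66 and 9.03 CPM, log2 change 3.97 ± 1.28, adjusted p = 0.063), and reads may be shared between them. In all, 18 called genes that rose had at most 3 counts without IPTG and 10 that fell had at most 3 with it.

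Genes next to each other on a chromosome were compared by their calls. Among 11107 pairs of tested protein-coding genes next to each other, clustered protocadherins left out, both were higher in 137 against 96.1 from the 2 shares alone, both lower in 103 against 72.9, and the members went opposite ways in 123 against 167. With the trend of GC content and length taken out these were 131, 119 and 143, against 92.9, 86.0 and 179 from the shares of that fit. The correlation of the log2 changes of such pairs was weak (Pearson 0.06, Spearman 0.07 across pairs, which share libraries), and -0.01 (Pearson) for genes 20 apart. At 20 genes apart, clustered protocadherins kept, both were higher in 113 pairs against 102, both lower in 94 against 77.1, and opposite in 197 against 177. There every kind of pair exceeded its number from the shares, the opposite kind too. For neighbours with starts over 200 kb apart these were 29 against 20.8, 33 against 15.8 and 37 against 36.3. The shares used were those over all genes with a neighbour, 9.30% higher and 8.10% lower. In the most isolated group of genes 8.93% were higher and 12.7% lower. The numbers from the shares are therefore no fair expectation for such distant pairs. An excess of same-direction calls was thus not particular to close neighbours. Same-direction runs of 3 or more called genes numbered 33, of which 18 were higher and 15 lower. No expected number was worked out for them, so that their count alone marks little. Unlike the pairs of next genes, the runs kept clustered protocadherins, and some consist of histone or Serpinb9 genes, whose reads may be shared. The runs spanned from 7.34 kb to 5031 kb. One lay on chromosome 2 (chr2:109674700-110173360, mm10), where 4 genes fell: Bdnf, a neurotrophin (19.1 and 20.96 against 11.9 and 12.1 CPM), Lin7c, a polarity protein (98.3 and 106 against 66.3 and 61.1 CPM), Lgr4, an R-spondin receptor (105 and 108 against 76.7 and 75.5 CPM), and Ccdc34 (33.9 and 37.7 against 29.2 and 27.1 CPM). Another run was Man2a2, Fes and Furin on chromosome 7, all higher, where Furin, a protease of the secretory pathway, was at 111 and 114 against 154 and 169.7 CPM (log2 change 0.52 ± 0.06, adjusted p = 2.3e-06). On chromosome 13, Serpinb9e and Serpinb9f of a protease inhibitor family fell (log2 changes -1.19 and -1.06) and Serpinb9b rose (log2 change 1.42); these are near copies, and their counts may share reads.

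The called share also varied with simple properties of the genes. Among protein-coding genes split into 5 equal groups by GC content, 5.01% of the lowest group and 14.7% of the highest were called higher, and 8.84% and 5.92% lower. By mean level, 2.59% of the lowest group and 12.5% of the highest were called lower; the part of counting depth in this was not tested. By distance to the nearest protein-coding start, the share called lower was 6.17% in the most crowded group, 5.19% in the next and 12.7% in the most isolated, while the share called higher was 7.53% and 8.93% at the ends and peaked at 11.4% in the second group. The part of library preparation in the relation to GC content was not tested. A fit with the trend of GC content and length removed called 2332 genes and kept 87.8% of the 2270.

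**Figure D5:**
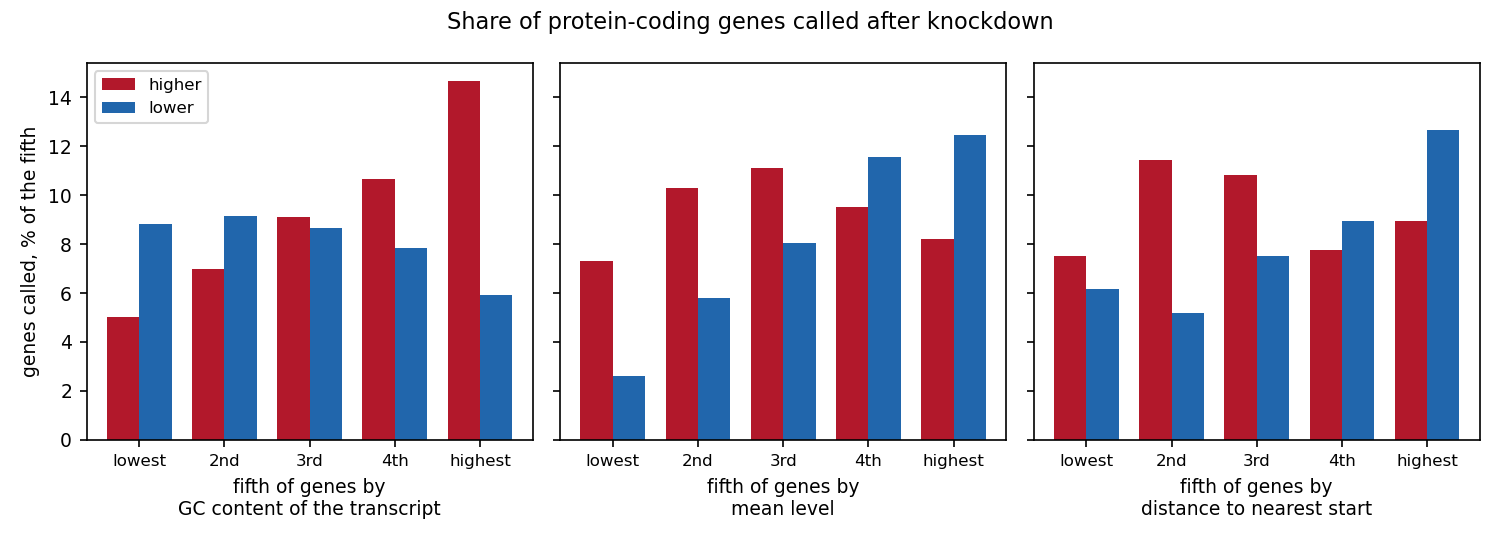
Share of tested protein-coding genes called higher (red) and lower (blue) in 5 equal groups by GC content, by mean level and by distance to the nearest protein-coding start; the vertical axis is percent of the group, from 0. The share called higher climbs with GC content from 5.01% to 14.7%, and the share called lower is lowest in the second group by distance (5.19%) and highest in the most isolated (12.7%).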

How the data were processed

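The deposited file holds raw read counts per gene that the authors made for all 24 libraries of total RNA (Illumina stranded kit with ribosomal depletion, per the labels). Per the submitters' processing notes, bcl2fastq 2.20, cutadapt 1.18, STAR 2.7.0f, featureCounts and Subread 2.0.3 were used with mm10; the strand setting is not given in the sources used here. Gene types and GC content came from GENCODE vM21, in which all 55341 names were found, 55298 at the same coordinates. Promoter windows came from RefSeq (GRCm38.p6).

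Counts were tested with edgeR 4.0.16 (R 4.3.3): TMM factors, filterByExpr (16934 genes tested, 38407 left out), 12 group means over 24 libraries (12 residual degrees of freedom), robust quasi-likelihood fit, Benjamini-Hochberg adjustment over all tested genes. The SE is the size of the log2 change divided by the square root of F. Among the 20 libraries that only share the spread, 1 is titled as ethanol but labelled as hormone-treated, and leaving it out was an alternative. The replicates were not duplicates of one library: their counts differed by more than sampling noise (chi-square per degree of freedom 7.55 and 8.35). The fit was tested on simulated data with 200 genes changed, drawn with the spread of the trend over expression level. It called 63.9% of the 1.5-fold and 76% of the 2-fold changes, and 4.17% of its calls were false. The spread of single genes about that trend was not simulated, so that these shares need not hold for the data. Counting intervals and floors (3 counts over a group) cover counting error only.

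Alternatives were RLE and upper-quartile factors, no filter and a strict filter (1 CPM), DESeq2 1.42.0, other sets of libraries, the replicate number as a block, each library left out, the 2 most abundant genes left out, and a trend of GC content and length removed. Named genes were the 40 with the largest fold and the 30 with the smallest p in each direction at a mean of at least 1 CPM with groups apart, members of the lists, and Nipbl and Mau2. The members and lists were chosen with earlier results of these data known. Lists were described by counts and medians, with no set test.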

Additional observations from a re-analysis of the deposited data

How the results depend on the processing

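Each called gene kept its direction in those of the 18 alternatives that gave it a value (136 had none under the strict filter, 30 with the 4 libraries alone and 11 with the 12 ethanol libraries), but the counts moved. At least 2-fold, 74 genes were higher and 53 lower after the strict filter, and 98 and 62 by DESeq2. Both gave fewer genes an adjusted p (12351 and 13651), and the part of this in the lower counts was not tested. Leaving out each of the 4 compared libraries in turn gave 1107 to 1527 called genes, 522 to 846 higher and 546 to 681 lower, with 81 to 126 higher and 66 to 94 lower at least 2-fold; leaving out the library with disagreeing labels gave 2136, 1121, 1015, 155 and 91. The replicates share numbers, and deviations of same-numbered libraries from their group means correlated at 0.19 over 12369 genes, while the 66 pairs of groups in the series spanned -0.32 to 0.55; not every pair exceeded 0.1, so that the numbers were not taken to pair the cultures. With the replicate block, 2922 genes were called over all libraries, 2866 with a block within each treatment, and 3357 in the 4 libraries alone, of which 1620 were lower. Other normalizations, filters and sets of libraries gave 2196 to 2413 calls. Of 130 called genes named in the text, 106 were called under every alternative that tested them and 125 under all those that kept the 4 libraries. Uncalled genes with changes near 0 took either sign when a library was left out: Cdh2 -0.061 and 0.0316, Fasn -0.227 and 0.0503, Ints8 -0.0442 and 0.015, Krt8 -0.182 and 0.33, Mdm2 -0.153 and 0.0488, Smad3 -0.166 and 0.224, Tsc22d3 -0.222 and 0.0705, Txnrd1 -0.113 and 0.0631, Vim -0.0113 and 0.0873, as lowest and highest log2 change; Ints8 was also at 0.0142 with the GC and length trend removed and 0.014 with the block added. With 2 libraries a group and 32532858 to 42711188 counts each, changes could be missed. Prl2c2 and Fn1 were not called although their groups did not overlap. That was so in 55.2% of all tested genes, and does not show that a change was missed.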

Other observations

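Growth factor, Wnt and amino acid transport genes, not described as lists above, had members changed in both directions. Some members were named there, Slc7a11 of the transporters among them. Of the protein-coding genes tested, 9.29% were called higher and 8.09% lower. Of 33 tested growth factor ligands and receptors 4 were higher and 5 lower, beside 7.16% and 6.24% of all genes, and of 33 Wnt genes 5 were higher and 4 lower. Without IPTG 1, IPTG 2, no IPTG 1 and no IPTG 2 the growth factor list gave 4, 3, 4 and 3 higher and 2, 4, 4 and 4 lower, and the Wnt list 5, 1, 1 and 3 higher and 3, 3, 2 and 3 lower. Met, the receptor of hepatocyte growth factor, was at 202 and 202 against 236 and 236 CPM (log2 change 0.23 ± 0.05, adjusted p = 0.0016), with both groups tight. Igfbp6, a binding protein for insulin-like growth factor II, was at 66.1 and 65.1 against 94.03 and 106 CPM (log2 change 0.61 ± 0.08, adjusted p = 1.8e-05). Sfrp2, a secreted Wnt antagonist, was at 97.05 and 106 against 66.5 and 61.8 CPM (log2 change -0.66 ± 0.09, adjusted p = 5.0e-05), and Apcdd1, another Wnt inhibitor, at 68.9 and 62.9 against 95.5 and 94.1 CPM (log2 change 0.52 ± 0.09, adjusted p = 3.9e-04), so that antagonists moved in both directions. Among 23 amino acid transporters 5 were higher and 3 lower, and 4, 3, 2 and 3 were higher and 2, 3, 2 and 3 lower in the same order. Slc7a1, which imports arginine and lysine, was at 315 and 296 against 229.5 and 219 CPM (log2 change -0.44 ± 0.06, adjusted p = 2.4e-05). Slc7a5, the large neutral amino acid transporter, was at 244 and 227 against 198 and 189 CPM (log2 change -0.28 ± 0.06, adjusted p = 0.0014). Slc1a4, a transporter of alanine, serine and cysteine, was at 35.8 and 32.4 against 42.7 and 44.5 CPM (log2 change 0.35 ± 0.07, adjusted p = 0.0011), higher. All the calls of genes named in this paragraph held in each of the 4 fits that left out 1 of the compared libraries.

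Imprinted genes gave 3 higher and none lower of 16, beside 7.16% and 6.24% of all genes, and 3, 2, 3 and 3 higher without IPTG 1, IPTG 2, no IPTG 1 and no IPTG 2. Peg13, a noncoding RNA made from the paternal copy within the Trappc9 gene, was at 11.5 and 10.7 against 16.9 and 18.6 CPM (log2 change 0.67 ± 0.08, adjusted p = 2.3e-06). Trappc9 was at 33.5 and 33.1 against 38.3 and 41.4 CPM (log2 change 0.26 ± 0.05, adjusted p = 0.0022), higher as well, and held in 3 of the 4 fits that left out a library. Zrsr1, which lies within Commd1 on the other strand, was at 8.85 and 9.72 against 13.3 and 13.3 CPM (log2 change 0.52 ± 0.11, adjusted p = 0.0017). The mesenchymal list gave 9 lower and 4 higher of 26 tested, or 34.6% and 15.4%, beside 8.09% and 9.29% of protein-coding genes. Among its genes, Prrx1 was at 19.6 and 19.7 against 13.8 and 15.4 CPM (log2 change -0.43 ± 0.09, adjusted p = 0.0021) and its paralogue Prrx2 at 2.99 and 3.50 against 5.37 and 5.85 CPM (log2 change 0.79 ± 0.15, adjusted p = 5.6e-04), 1 lower and 1 higher. Axl, a receptor tyrosine kinase, was at 795 and 772 against 1002 and 1022 CPM (log2 change 0.37 ± 0.06, adjusted p = 2.0e-04). The epithelial list gave 6 higher and 2 lower of 24 tested, or 25% and 8.33%. In it Pkp3, a desmosomal plakophilin, was at 0.817 and 1.05 against 2.73 and 2.13 CPM (log2 change 1.40 ± 0.28, adjusted p = 0.0011), while Pkp1, of the same family, was at 81.5 and 88.1 against 63.2 and 70.03 CPM (log2 change -0.35 ± 0.07, adjusted p = 0.0013).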
